A study of Homo sapiens with 15 samples.

Results

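The genes described here are LENG8, NBEAL2, HSPG2, SSPO, MPG, CPNE7 and TEF. Each had a row among the furthest lowered ones when long non-coding RNAs were targeted for activation in HEK293FT cells. For MPG this was not the row with the most counts, which fell little. The 7 genes were chosen by symbol, with low values in the libraries titled trex4039 and trex5008 already known. They occupy 10 of the 11230 rows of the deposited table because the symbol MPG stands on 4 rows. HEK293FT cells derive from human embryonic kidney and grow fast. Of genes usual for that line the table lists KRT8, LHX1, NEFM and PAX2, with authors' means over all libraries between 343.3 for PAX2 and 4980 for NEFM, and not VIM, KRT18, NEFL or EYA1, and it lists 0 of PTPRC, HBB, ALB and COL1A1. Rows are listed by adjusted p, so a gene that is left out may still be expressed, and listing is no check of the cell type.

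All cells, control included, received plasmids for dCas9-VP64 and for an MS2-p65-HSF1 activator with 5 guide RNAs, were given puromycin at 2 ug/mL from 24 hours and were harvested at 48 hours. The groups are trex4039 (target label TrEx4039), trex5008, trex8168 and trex0108 (target label TrEx108), each with guides placed 50 to 450 bp upstream of a lncRNA start, and a control with non-targeting guides. The libraries titled trex5008 carry the target label TrEx8168 and those titled trex8168 carry TrEx5008, so groups are called here by title. Each group had 3 libraries of polyA RNA, prepared as biological triplicates. The authors' table gives 1 mean normalised count per group without a spread, so the depth and the overlap of single libraries are unknown, and in bulk RNA fewer transcribing cells and less RNA per cell cannot be told apart. Rows are listed only with an adjusted p under 0.1 for 1 or more of the comparisons, so shares of rows below refer to an already selected list.

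The members have different roles. LENG8 is named for its place in the leukocyte receptor cluster on chromosome 19. NBEAL2 is a BEACH-domain protein needed for the alpha-granules of platelets. HSPG2 encodes perlecan, a large heparan sulphate proteoglycan of basement membranes, and SSPO encodes SCO-spondin, a giant secreted glycoprotein of the subcommissural organ that forms the Reissner fibre. MPG encodes the DNA glycosylase that removes alkylated purines at the start of base excision repair. CPNE7 is a copine, a calcium-dependent phospholipid-binding protein, and TEF is a PAR bZIP transcription factor, a family with rhythmic output under the circadian clock.

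The sequence around the annotated start is shown for LENG8, NBEAL2, HSPG2 and TEF, the 4 members that have 1 row, a RefSeq promoter entry and a call of lower in trex4039, trex5008 and trex8168 alike, so that their starts can be compared. The upstream start is shown where there are several. RefSeq (GRCh38.p14) held promoters, 250 bases before to 50 after a start, for 5 of the 7 genes. Capitals mark the GC box GGGCGG, the cyclic AMP response element TGACGTCA or the E-box CACGTG, each searched on both strands, where neighbouring GC boxes can overlap one another.
LENG8, chr19:54448949-54449248, plus strand: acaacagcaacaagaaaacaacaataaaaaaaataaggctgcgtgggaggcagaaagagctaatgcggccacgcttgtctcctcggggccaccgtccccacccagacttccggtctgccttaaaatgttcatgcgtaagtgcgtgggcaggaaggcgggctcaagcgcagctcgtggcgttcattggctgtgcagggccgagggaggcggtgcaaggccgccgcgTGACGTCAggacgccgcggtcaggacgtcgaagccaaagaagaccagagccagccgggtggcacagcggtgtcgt
NBEAL2, chr3:46979416-46979715, plus strand: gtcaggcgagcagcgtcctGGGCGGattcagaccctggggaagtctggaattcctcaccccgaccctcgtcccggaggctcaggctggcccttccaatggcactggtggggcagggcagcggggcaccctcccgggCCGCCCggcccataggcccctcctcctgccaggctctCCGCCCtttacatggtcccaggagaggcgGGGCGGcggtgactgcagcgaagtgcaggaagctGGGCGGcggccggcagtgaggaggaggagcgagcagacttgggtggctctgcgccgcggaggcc
HSPG2, chr1:21937261-21937560, minus strand: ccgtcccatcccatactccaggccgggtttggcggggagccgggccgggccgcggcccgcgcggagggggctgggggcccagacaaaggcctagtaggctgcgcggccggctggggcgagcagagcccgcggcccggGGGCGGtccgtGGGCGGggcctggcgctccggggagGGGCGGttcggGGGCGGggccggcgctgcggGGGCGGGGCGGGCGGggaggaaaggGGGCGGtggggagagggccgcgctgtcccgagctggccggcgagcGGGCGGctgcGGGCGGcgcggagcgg
TEF, chr22:41367205-41367504, plus strand: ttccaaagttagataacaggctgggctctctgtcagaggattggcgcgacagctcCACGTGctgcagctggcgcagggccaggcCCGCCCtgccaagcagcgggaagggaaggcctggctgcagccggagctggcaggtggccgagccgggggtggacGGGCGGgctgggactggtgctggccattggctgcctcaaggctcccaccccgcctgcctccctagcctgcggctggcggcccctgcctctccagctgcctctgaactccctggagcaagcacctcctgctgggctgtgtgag
The 4 windows differed in these letters. The HSPG2 window holds 10 GC boxes and its GC content of 83.3% is higher than that of 99.3% of all 35116 RefSeq promoter windows. GC content was 71.3% for NBEAL2, 69.0% for TEF and 60.3% for LENG8, above that of 82.7%, 77.2% and 54.1% of windows. NBEAL2 holds 5 GC boxes and TEF 2, while the LENG8 window holds 0 and has 1 cyclic AMP response element. These features depend on the start shown. The windows are in GRCh38 and the rows below in hg19, and it was not checked which start a row used. A window shown here, such as that of TEF, can therefore lie outside the row. The downstream LENG8 start had a GC content of 74.7%, 1 GC box and 0 cyclic AMP response elements. The downstream NBEAL2 start had 66.3% and 1 GC box, and that of TEF had 69.7% and 2 GC boxes. Among all windows 45.0% have a GC box, 1.85% have TGACGTCA and 7.26% have CACGTG, of which the TEF window holds 1. These matches describe the letters and not bound sites.

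LENG8 (chromosome 19, 54959379 to 54974987, hg19, as are all positions below) had the authors' mean normalised counts of 4363 in trex4039, 5765 in trex5008, 6913 in trex8168 and 9828 in trex0108, against 10499.9 in control. It was thus at 41.5% of control in trex4039, 54.9% in trex5008, 65.8% in trex8168 and 93.6% in trex0108. The group means descended in the order control, trex0108, trex8168, trex5008, trex4039. The log2 fold changes over control by the authors' deposited table are -1.19 for trex4039, -0.81 for trex5008, -0.57 for trex8168 and -0.09 for trex0108. Errors of these fold changes were recovered approximately from the deposited adjusted p-values and were 0.07 in trex4039, trex5008 and trex8168.

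NBEAL2 (chromosome 3, 47021125 to 47052644) had the same order, with authors' means of 1425 in trex4039, 1785 in trex5008, 2269 in trex8168 and 2850 in trex0108, against 3133 in control. Its log2 fold changes by the authors' deposited table are -1.06 ± 0.07 in trex4039, -0.76 ± 0.07 in trex5008 and -0.44 ± 0.07 in trex8168 (approximate SE, n = 3 libraries a group). HSPG2 (chromosome 1, 22144707 to 22263800) stood at 633.4 in trex4039, 754.1 in trex5008, 919.6 in trex8168 and 1133 in trex0108, against 1339 in control, by the authors' means. Perlecan RNA thus reached 47.3% of control in trex4039 and 84.7% in trex0108. The authors' deposited table lists it at -0.96 ± 0.09 in trex4039 and -0.74 ± 0.09 in trex5008. SSPO (chromosome 7, 149469429 to 149531446), annotated in the table as a processed transcript, had authors' means of 183.6 in trex4039, 243.9 in trex5008, 298.0 in trex8168 and 417.5 in trex0108, against 442.1 in control. By percent of control, SSPO and LENG8 were alike in trex4039 (41.5% for both) and in trex5008 (55.2% and 54.9%). The authors' deposited table lists SSPO at -1.07 ± 0.10 in trex4039 and -0.73 ± 0.10 in trex5008.

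TEF (chromosome 22, 41777536 to 41829439) had authors' means of 112.7 in trex4039, 129.2 in trex5008, 149.8 in trex8168 and 206.4 in trex0108, against 237.9 in control. CPNE7 (chromosome 16, 89641664 to 89663810) had 121.4 in trex4039, 211.5 in trex5008, 239.5 in trex8168 and 248.5 in trex0108, against 286.4 in control. The copine row therefore differed from the others in its steps: its mean in trex5008 was 73.8% of control, next to 54.3% for TEF, while both were below 50% of control in trex4039, at 42.4% and 47.4%. The authors' deposited table lists CPNE7 at -1.03 ± 0.10 in trex4039 and -0.38 ± 0.10 in trex5008, and TEF at -0.88 ± 0.11 and -0.74 ± 0.11.

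**Figure D1:**
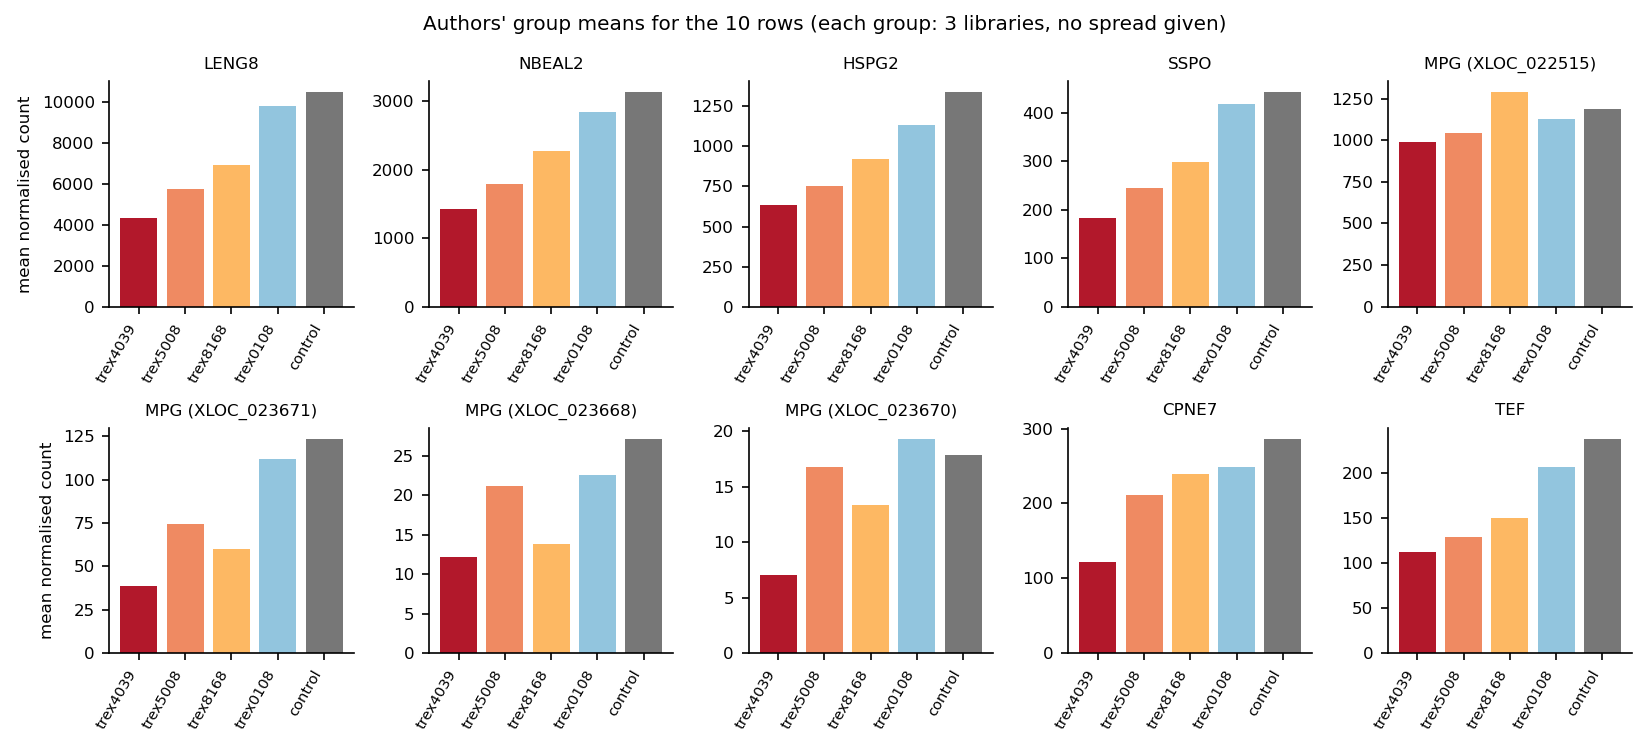
The authors' mean normalised counts (vertical axes, from 0, scaled per panel) in trex4039, trex5008, trex8168, trex0108 and control for the 10 rows; each bar is 1 deposited mean of 3 libraries, with no spread given. In 6 rows the bars climb in the order shown, while the 4 MPG rows have other orders.

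Across all 5 groups, 6 of the 10 rows, those of LENG8, NBEAL2, HSPG2, SSPO, CPNE7 and TEF, had means in the same descending order, which 7.34% of all rows share. The low end of that order was part of how the members were chosen, and is a description. All 10 rows were called lower in trex4039 at an adjusted p under 0.05 by the authors' deposited table, where 33.7% of all rows were, and 7 were called lower in trex5008, where 24.3% of all rows were. Nothing is read from these counts, since both comparisons chose the members. By log2 fold change among named, called rows with a mean of at least 50, LENG8 ranked 1 of 4834 from the lowest in trex4039 and 1 of 3747 in trex5008. TEF ranked 17 in trex4039 at -0.88, followed by IDUA, SREBF1 and ATHL1 at -0.87, -0.86 and -0.84 by the authors' deposited table. The members did not form a block there. ASMTL-AS1 ranked 2, CTD-3184A7.4 ranked 5, and ranks 9 (HES5) to 16 (LTBP4) were all held by rows that are not members. NBEAL2, HSPG2, TEF and SSPO ranked 3, 5, 6 and 7 in trex5008. Rank 2 was CTD-3184A7.4 and rank 4 was RP5-882C2.2, neither of them a member. SSPO, at -0.73, was followed by CTD-3193O13.9 at -0.73 and HES5 and hsa-mir-125a at -0.72 each by the authors' deposited table. CPNE7 ranked 332 in trex5008. MPG row XLOC_023671 ranked 6 in trex4039 and 67 in trex5008. XLOC_022515, the MPG row with the most counts, ranked 1511 in trex4039 and was not called in trex5008.

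The libraries titled trex8168 and trex0108 were less involved in the choice, although the MPG value in trex8168 was known and all 4 comparisons share the 3 control libraries. In trex8168, 6 of the 10 rows were called lower and 0 higher by the authors' deposited table, where 6.45% of all rows were called lower. LENG8 fell with -0.57 on the log2 scale (adjusted p 3.21e-14) and NBEAL2 with -0.44 (adjusted p 6.34e-08), by the authors' deposited table. HSPG2, SSPO and TEF fell in trex8168 with -0.49, -0.50 and -0.56 by the authors' deposited table, with adjusted p of 3.81e-06, 5.62e-05 and 1.95e-05. CPNE7 did not pass there, at -0.23 with an adjusted p of 0.103 by the authors' deposited table. In trex0108, 0 of the 10 rows were called in either direction, where 0.249% of all rows were called lower and 5.65% higher; the table gives no unadjusted p. The fold changes of the 7 genes' rows in trex0108 ran from -0.22 for HSPG2 to 0.05 for the MPG row XLOC_023670, and the lowest adjusted p was 0.288, for HSPG2, by the authors' deposited table. The median log2 fold change of the 10 rows was -0.995 in trex4039, -0.62 in trex5008, -0.46 in trex8168 and -0.11 in trex0108, beside 0.03, 0.02, 0.04 and 0.02 over all rows.

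Neighbouring steps of the order were compared through the difference of the deposited log2 fold changes, which lie nearer 0 than the log2 ratios of the group means. As both were used to choose the members in trex4039 and trex5008, these intervals are given as a description. For LENG8, trex4039 minus trex5008 was -0.38 with an approximate 95% interval of -0.56 to -0.19, and trex5008 minus trex8168 was -0.25 (-0.43 to -0.06). NBEAL2 gave -0.30 (-0.49 to -0.11) for the first step and -0.32 (-0.51 to -0.13) for the second. CPNE7 gave -0.65 (-0.93 to -0.36) for the first step and MPG row XLOC_023671 gave -0.53 (-0.91 to -0.16). By the log2 ratio of the trex4039 mean to the trex5008 mean these were -0.80 for CPNE7 and -0.95 for XLOC_023671, so the order of the pair depends on the scale. The intervals of TEF held 0 at both steps, -0.15 (-0.45 to 0.16) and -0.17 (-0.47 to 0.13), so neither pair of neighbouring groups was shown to differ for TEF. For HSPG2 the first step, -0.22 (-0.46 to 0.02), did not exclude 0 and the second, -0.26 (-0.50 to -0.01), did, while SSPO had -0.34 (-0.62 to -0.06) and -0.24 (-0.51 to 0.04). In all, 5 of the 8 member rows with errors in both comparisons had an interval between trex4039 and trex5008 that excluded 0, as did 12.0% of 5690 rows with such errors.

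**Figure D2:**
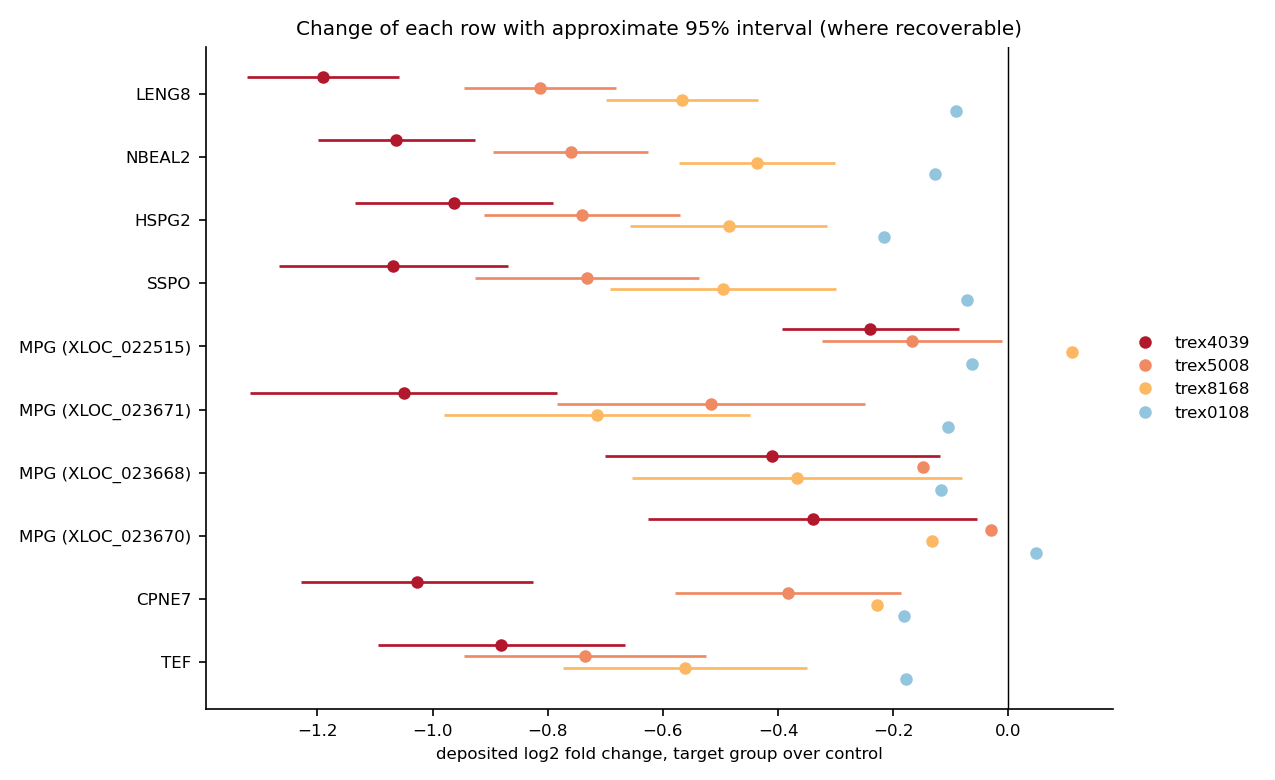
Deposited log2 fold change of each target group over control (horizontal axis) for the 10 rows; points are the authors' values and lines approximate 95% intervals, drawn where an adjusted p under 0.1 let an error be recovered. The trex4039 points of LENG8, NBEAL2, HSPG2, SSPO, CPNE7, TEF and MPG row XLOC_023671 lie between -1.19 and -0.88, and that of MPG row XLOC_022515 at -0.24.

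The MPG symbol covers 4 rows of different size and behaviour on chromosome 16. Row XLOC_022515 (122736 to 180289) had authors' means of 991.6 in trex4039, 1046 in trex5008, 1290 in trex8168 and 1130 in trex0108, against 1186 in control. Its log2 fold changes by the authors' deposited table are -0.24 in trex4039 (adjusted p 0.00451), -0.17 in trex5008 (0.0619) and 0.11 in trex8168 (0.342). The large drop in the deposited fold changes is that of row XLOC_023671 (150995 to 160252), with authors' means of 38.7 in trex4039, 74.7 in trex5008, 59.995 in trex8168 and 112.0 in trex0108, against 123.6 in control. Its log2 fold changes by the authors' deposited table are -1.05 ± 0.14 in trex4039, -0.52 ± 0.14 in trex5008 and -0.71 ± 0.14 in trex8168 (approximate SE, n = 3 libraries a group), and unlike the 6 genes with 1 row its mean was lower in trex8168 than in trex5008. The interval of trex5008 minus trex8168, 0.20 (-0.18 to 0.58), held 0.

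Rows XLOC_023668 (143717 to 145259) and XLOC_023670 (148958 to 150121) are short and had few counts, with authors' means of 12.2 and 7.01 in trex4039, 21.2 and 16.8 in trex5008, 13.8 and 13.4 in trex8168 and 22.6 and 19.3 in trex0108, against 27.2 and 17.8 in control. Both were lowest in trex4039, where the log2 ratios of the means to control were -1.15 for XLOC_023668 and -1.35 for XLOC_023670, while the authors' deposited table lists -0.41 and -0.34. All 3 of these smaller rows lie inside the row of NPRL3 (129642 to 188645), which encodes a subunit of the GATOR1 complex that restrains mTORC1. Locus numbers in the table run in 2 blocks ordered by position on each of 24 chromosomes, and for 98.8% of 5853 protein-coding genes with 1 row the block matched the strand in GENCODE 29, the first block plus and the second minus. XLOC_022515 is in the first block and the other 3 MPG rows are in the second, with NPRL3. In GENCODE 29 MPG is on the plus strand with a span of 8847 bp, and NPRL3 on the minus strand, so the MPG row with the furthest lowered fold change matched NPRL3 and not MPG in strand order. NPRL3 itself had authors' means of 1696 in trex4039, 1783 in trex5008, 2162 in trex8168 and 2654 in trex0108, against 2173 in control. It fell with -0.34 in trex4039 and -0.27 in trex5008 and rose with 0.28 in trex0108, with adjusted p of 8.71e-08, 4.90e-05 and 1.19e-04 by the authors' deposited table. The library kit was directional, per the labels, but the sources used here do not say whether counting used strand, so reads of MPG, NPRL3 and these rows cannot be fully told apart.

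**Figure D3:**
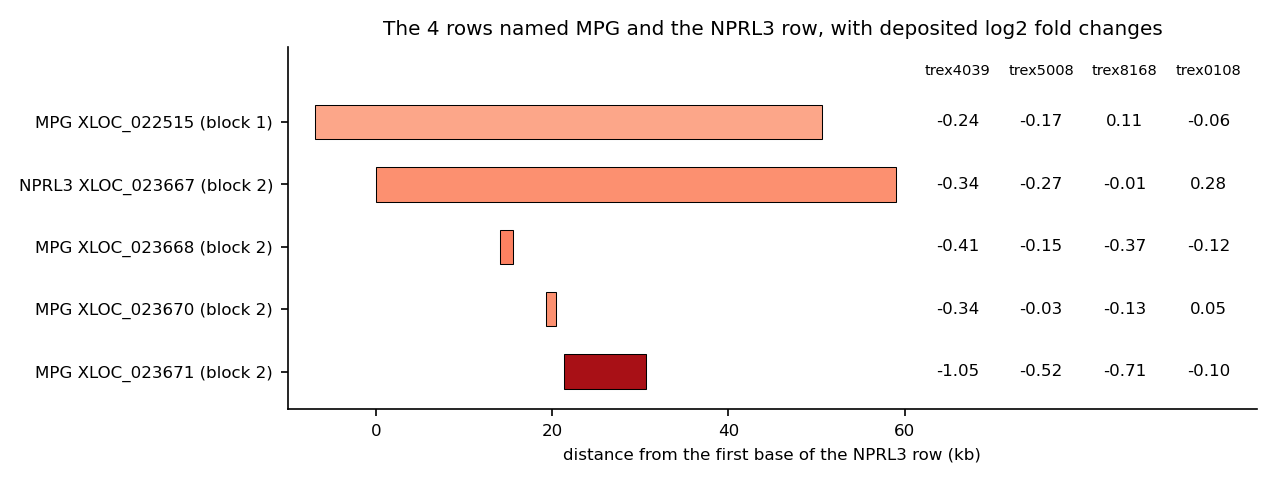
Extent of the 4 rows named MPG and of the NPRL3 row, in kb from the first base of the NPRL3 row, darker red for a larger fall in trex4039; the numbers are the deposited log2 fold changes in the 4 comparisons, and the block is the run of locus numbers a row belongs to. XLOC_023671, at -1.05 in trex4039, lies inside NPRL3, and XLOC_022515, at -0.24, covers most of the interval.

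The members shared a high GC content and, for several, long transcripts of many exons. The choice did not use these traits by name. It did use low fold changes in trex4039 and trex5008, which moved with GC content, so the shared GC content is a description. Values are those of the longest GENCODE 29 transcript, taken among protein-coding transcripts where a gene had any. GC content was 61.6% for LENG8, 62.4% for NBEAL2, 64.5% for HSPG2, 67.0% for SSPO, 63.8% for CPNE7 and 56.7% for TEF. The median was 63.1%, beside 47.5% over 5853 protein-coding rows with a value. MPG has no value here, since its symbol stands on several rows. The longest transcripts of HSPG2 and SSPO have 97 and 107 exons and that of NBEAL2 has 54, beside a median of 10, whereas TEF has 4. SSPO, at 15589 bases, and HSPG2, at 14327, exceed 99.4% and 99.1% of protein-coding rows in length, while CPNE7, at 2657, exceeds 31.8%.

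Other rows of like GC content also had lower fold changes than the table as a whole in trex4039 and trex5008. The 1581 other protein-coding rows within the members' range of GC content had a median log2 fold change of -0.27 in trex4039, -0.22 in trex5008, -0.02 in trex8168 and -0.04 in trex0108, beside 0.11, 0.06, 0.06 and 0.03 over all protein-coding rows with a value. With the trend on GC content removed, LENG8 stood at -0.76 in trex4039, -0.48 in trex5008 and -0.47 in trex8168. HSPG2 then stood at -0.50, -0.38 and -0.40, and TEF at -0.54, -0.47 and -0.48. SSPO stood at -0.58 in trex4039, -0.36 in trex5008 and -0.41 in trex8168, and NBEAL2 at -0.62, -0.42 and -0.35. CPNE7 stood at -0.57 in trex4039, -0.03 in trex5008 and -0.14 in trex8168. After this subtraction all 6 were lowest in trex4039. HSPG2, SSPO, CPNE7 and TEF, 4 of the 6 genes, had slightly lower values in trex8168 than in trex5008. The subtracted values have no errors, so no order of trex5008 and trex8168 is read from them. For the deposited difference between trex5008 and trex8168 the approximate SE was 0.12 for HSPG2, 0.14 for SSPO and 0.15 for TEF. GC content thus moved with the fold changes, and its part in the members' values beyond this subtraction was not tested.

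**Figure D4:**
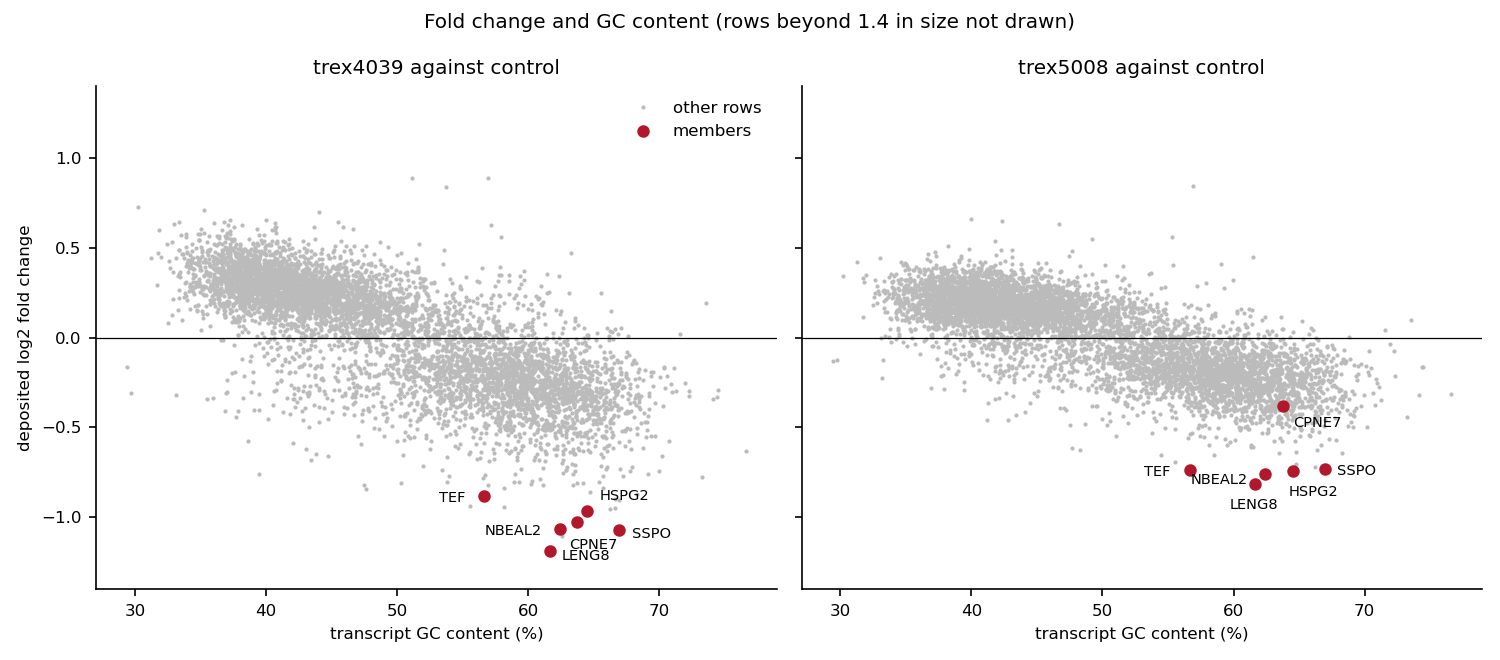
Deposited log2 fold change (vertical axis) against the GC content of the longest transcript (horizontal axis, percent) for rows with a value, in trex4039 and trex5008; grey points are other rows and red points the 6 members with a value. The members lie at GC contents from 56.7% to 67.0%, below most rows of like GC content in trex4039, and CPNE7 at -0.38 lies within the grey points in trex5008.

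Other genes of the members' families and pathways came from lists chosen with earlier results of these data known. Their directions differed between lists. In trex5008 all called rows of the basement membrane and thrombospondin repeat lists were lower. In trex4039 37.1% of all rows were called higher and 33.7% lower, in trex5008 29.8% and 24.3%, in trex8168 14.6% and 6.45%, and in trex0108 5.65% and 0.249%. Of 8 BEACH-domain genes besides NBEAL2, 3 are listed, of which 2 were higher and 1 lower in both trex4039 and trex5008, with medians of 0.20 and 0.16. WDR81, with roles in endosomes, fell with -0.41 in trex4039 and -0.32 in trex5008, and LYST, the lysosomal trafficking regulator, rose with 0.39 and 0.36, by the authors' deposited table.

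Of 28 basement membrane genes besides HSPG2, 12 are listed on 13 rows, of which 9 were lower and 1 higher in trex4039 and 9 lower and 0 higher in trex5008, with 1 lower and 1 higher in trex8168 and 0 called in trex0108. Their median log2 fold changes were -0.27 in trex4039 and -0.23 in trex5008, next to -0.27 and -0.22 for the 1581 rows in the members' range of GC content. The type IV collagen gene COL4A2 had authors' means of 3097 in trex4039 and 4851 in control and fell with -0.62, and SPARC, a collagen-binding matrix protein gene, rose with 0.19, by the authors' deposited table. The laminin chain gene LAMC3 was the furthest lowered of these in trex5008, with means of 371.7 in trex5008 and 546.0 in control and a log2 fold change of -0.49 by the authors' deposited table. Of 45 genes with thrombospondin type 1 repeats besides SSPO, 20 are listed, of which 10 were lower and 5 higher in trex4039, with a median of -0.21, and 10 lower and 0 higher in trex5008, with -0.29. BAI1, an adhesion receptor gene, fell with -0.68 in trex4039, the netrin receptor gene UNC5A fell with -0.64 in trex5008, and THBS1 rose with 0.41 in trex4039, by the authors' deposited table. The part of GC content in these list counts was not tested.

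Of 20 base excision repair genes besides MPG, 7 are listed, of which 3 were lower and 1 higher in trex4039, with a median of -0.21, and 2 lower and 1 higher in trex5008, with -0.09. The glycosylase gene NEIL1 fell with -0.65 in trex4039 and -0.22 in trex5008, and TDG, the thymine DNA glycosylase gene, rose with 0.29 in trex4039, by the authors' deposited table. Of 8 copines besides CPNE7, 5 are listed, with 2 higher and 0 lower and a median of 0.20 in trex4039, and 2 higher and 1 lower and a median of 0.07 in trex5008. CPNE3 and CPNE8 rose with 0.35 and 0.37 in trex4039, and CPNE2 fell with -0.17 in trex5008, by the authors' deposited table. Of 20 PAR bZIP and clock genes besides TEF, 12 are listed, of which 5 were lower and 3 higher in trex4039 and 3 lower and 1 higher in trex5008, with a median of -0.08 in both. BHLHE40, a repressor gene of the clock, had authors' means of 1054 in trex4039 and 1314 in trex5008, against 2010 in control, with log2 fold changes of -0.72 and -0.48 by the authors' deposited table. NFIL3, the bZIP repressor gene that opposes PAR bZIP factors, rose with 0.25 and 0.29 by the authors' deposited table. Of 22 genes for speckle RNAs or with detained introns, 7 are listed on 8 rows, of which 3 were higher and 3 lower in trex4039 and 3 higher and 2 lower in trex5008. In trex8168 each of these lists had at most 2 rows called higher and at most 1 called lower.

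The rows most like each member were found among 6624 named rows with a mean of at least 50, by the root mean square distance over the 4 log2 ratios of the group means to control with a pseudocount of 1. The antisense RNA CTD-3184A7.4 was nearest to LENG8 and SSPO, at distances of 0.09 and 0.08, and the antisense RNA RP11-506M12.1 to NBEAL2, at 0.06. CTD-3184A7.4 had ratios of -1.24 in trex4039, -0.93 in trex5008, -0.44 in trex8168 and -0.09 in trex0108, next to -1.27, -0.86, -0.60 and -0.10 for LENG8. The antisense RNA RP5-882C2.2 was nearest to HSPG2 and TEF, at 0.10 and 0.07, and B4GALNT4, a glycosyltransferase gene, to CPNE7 at 0.10. Among the 3 nearest rows of each of the 6 genes with 1 row, 11 different rows in all, 5 are annotated as antisense, a type that makes up 3.65% of the rows searched. The protease gene ATG4B of autophagy was among the 3 nearest of LENG8, SSPO and TEF, and IDUA, a lysosomal enzyme gene, among those of NBEAL2. The members were chosen for low values, which this measure also uses. The share of antisense rows among lowered rows alone was not computed. Counts of some of these rows were small, with means for RP11-506M12.1 of 31.9 in trex4039 and 71.8 in control, while CTD-3184A7.4 had 141.1 and 334.1. MPG row XLOC_022515 had TGFB1I1, GRHPR and NCLN as its nearest rows, and XLOC_023671 had ASMTL-AS1, TPPP and PCGF3.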

How the data were processed

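The submitters' processing notes name STAR 2.5.1b, Bowtie2 2.2.1, DESeq2 1.14.1, DESeq, Cufflinks and bedtools, and the builds GRCh37 and hg19, without saying what each was for. The deposited signal columns hold the authors' mean normalised counts per group. The authors' log2 fold changes, a target group over control, lie nearer 0 than the log2 ratios of means for 40 of 40 member values. The p-value columns deposited by the authors are adjusted. The authors' calls, a further deposited column, equalled an adjusted p under 0.1, with 0 mismatches; 0.05 was used here.

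Values per library were not used here, so the count test planned for them could not be run. Raw p was approximated as adjusted p times rank over the number of rows with an adjusted p, and SE as fold change over the normal quantile. On simulated comparisons of 15000 features built from trex4039, the median ratio of recovered to true SE was 1.00 if the number of tests was known and 1.09 if only listed rows were counted; for trex5008 it was 1.00 and 1.16. Intervals of differences set the covariance from the shared control to 0. A planned adjusted p for these differences is not printed, because both fold changes were used to choose the members. GC content came from the longest GENCODE 29 transcript, protein-coding where a gene had one, and was found for 81.7% of 7160 protein-coding genes with 1 row. Its trend was fitted by lowess (statsmodels 0.14.6, fraction 0.3) on all 6222 symbols with 1 row and a value, of any type. The trend was subtracted and its median added back. Members and lists were chosen with earlier results of these data known. Besides the members, genes were named by rule: the 3 nearest in pattern, rows within 50 kb, the called extremes of each list and the next 3 in rank. Some rows ranked between the members were named as well. One gene list and 1 marker gene are not reported here.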

Additional observations from a re-analysis of the deposited data

Results flagged for a closer look

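The difference between the falls in trex4039 and trex5008 had an approximate 95% interval that excludes 0 in 5 member rows. These were 5 of the 8 member rows with errors in both comparisons, where 12.0% of all 5690 rows with such errors had such an interval. The differences of log2 fold change, trex4039 minus trex5008, were -0.38 for LENG8, -0.30 for NBEAL2, -0.34 for SSPO, -0.53 for MPG row XLOC_023671 and -0.65 for CPNE7. By the log2 ratio of the group means the MPG row was at -0.95 and CPNE7 at -0.80, the opposite order. The members were chosen on both fold changes, so these are descriptions. No group could be examined for a library far from the others, as values per library were not used here.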

How the results depend on the processing

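Of the 10 member rows, 8 were called lower in trex4039 with an adjusted p under 0.01 and 10 with one under 0.1. These counts were 7 and 8 in trex5008, 6 and 7 in trex8168 and 0 and 0 in trex0108. With 1 row for each of the 7 genes, at 0.05, 7 were called lower in trex4039, 6 in trex5008, 5 in trex8168 and 0 in trex0108. Of all rows, 33.7%, 24.3%, 6.45% and 0.249% were called lower at 0.05 in these groups. The median log2 fold change of the member rows in trex4039, -0.995, was -1.20 by the log2 ratio of group means, -1.18 with a pseudocount of 1, -1.11 with the median of protein-coding rows subtracted and -0.58 with the GC trend removed. In trex5008 the median, -0.62, was -0.77 by the ratio of means with or without the pseudocount, -0.40 with the GC trend removed and -0.74 with 1 row per gene, a choice made after seeing the data. The GC values cover 6 rows, whose deposited medians were -1.05 and -0.74. Under the same settings the median lay between -0.56 and -0.41 in trex8168 and between -0.14 and -0.06 in trex0108. No called member value changed sign; SSPO in trex0108, not called, stood at 0.04 with the GC trend removed. With a covariance share of 0.5 the interval of HSPG2 between trex4039 and trex5008 also excluded 0. Leaving out single libraries was not run, as values per library were not used here. No paired analysis was possible because the table holds group means only. Depth is unknown and limits the rows with means under 50.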

Other observations

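Rows that overlap the members from the other block of locus numbers did not always move with them. XLOC_032299 (chromosome 19, 54972790 to 54974961) lies inside the LENG8 row at its far end, and had authors' means of 114.1 in trex4039, 111.8 in trex5008, 262.9 in trex8168 and 163.6 in trex0108, against 164.4 in control. The authors' deposited table lists it as higher in trex8168, at 0.56 on the log2 scale (adjusted p 3.33e-05), where LENG8 was at -0.57. XLOC_032298 overlaps the other end of LENG8 by 1241 bp and fell with -0.69 in trex4039 and -0.35 in trex5008 by the authors' deposited table. ZNF467, a zinc finger gene that overlaps SSPO by 4187 bp, rose with 0.42 in trex0108 and was not called in trex4039 or trex5008 by the authors' deposited table, and TOB2, an antiproliferative factor gene that overlaps TEF by 9737 bp, fell with -0.30 in trex4039 and -0.46 in trex5008.

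Of 16 listed rows within 50 kb of LENG8, HSPG2, SSPO, CPNE7 and TEF, 9 were lower and 1 higher in trex4039, with a median log2 fold change of -0.28. In trex5008 9 were lower and 1 higher, with -0.17, by the authors' deposited table. Of all rows, 33.7% were called lower and 37.1% higher in trex4039, and 24.3% and 29.8% in trex5008. The 1581 rows in the members' range of GC content had medians of -0.27 and -0.22. The part of GC content in the neighbours' values was not tested. NBEAL2 had no listed row in that window. In trex8168 2 of the 16 rows were lower and 3 higher, where 6.45% and 14.6% of all rows were. The nearest gene of CPNE7, the ribosomal protein gene RPL13, ends 4893 bp before it.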
